A study of Mus musculus with 24 samples.

Results

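The genes described here encode the translation initiation and elongation factors of mouse and the enzymes that load amino acids onto tRNA, the aminoacyl-tRNA synthetases. They were taken by symbol: every probe annotated with exactly 1 gene whose name begins with Eif or Eef and a digit, or that names a synthetase such as Aars or Sars2. Eef2k, Eef2kmt and Eif4enif1 share these letters but act on translation factors, and they were left out. The rule took 75 of 7680 probes on a first array design, called array set 1, and 73 of 7680 probes on a second, array set 2. These probes stand for 47 of 3838 named genes in array set 1 and 43 of 4075 in array set 2, with 72 different genes in all and 18 measured in both sets.

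Mouse embryos in culture at 37 °C were exposed for 1 h to 40 µM 4-hydroperoxycyclophosphamide (4CP), a form of the anticancer drug cyclophosphamide that needs no activation by the liver, and the reference was untreated embryos kept at the same temperature. Each record carries RNA from treated embryos in one channel and RNA from control embryos in the other, so that a value is itself a ratio between treatment and control. The 24 array records form 12 slides with 2 records each, and the slides form 6 slide pairs in which the second slide has the channels swapped, 3 pairs per array set. The embryos' stage and strain, the number of embryos pooled and the labelling dyes were not given in the sources used here. Embryos were taken as a whole, so fewer cells of a type and less RNA per cell cannot be told apart.

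Each record was centred on its median probe and the 2 records of a slide were averaged. The turned effect of a slide pair is the slide with treated RNA in channel 1 minus the swapped slide, divided by 2, in which a preference of a probe for a dye cancels as far as it is equal on both slides. With channel 1 as the numerator of the ratio, a positive sign means more RNA after treatment; with channel 2, all signs turn together. The log base is 2 or e, which the labels do not settle, so 0.1 unit is a 1.07-fold or a 1.11-fold difference. The labels also do not say whether swapped slides were already turned before deposit. If they were, the treatment effect is instead the unturned component, the sum of the 2 slides divided by 2, and both readings are given. Pairs 1, 2 and 3 are named after the titles, which do not say whether a number stands for a separate culture, litter or extract, so the p-values cover only how slide pairs differ, and that spread may be technical. Without spot intensities, the labelled tissue cannot be checked against levels of its marker genes.

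Translation starts when the eIF4 factors recognise the cap of an mRNA and unwind its leader, while eIF2 brings the initiator tRNA to the small ribosomal subunit on the eIF3 scaffold. eEF1 then delivers loaded tRNAs and eEF2 moves the ribosome along. When eIF2 is phosphorylated by one of its kinases, most initiation slows, but the transcription factor ATF4 is translated more, and genes for several cytosolic synthetases are among its known targets in cultured mouse cells. ATF4 binds with C/EBP proteins to DNA elements around the letters TGATGNAA.

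These letters were looked for on both strands of the RefSeq promoter windows (GRCm38.p6), 250 bases before to 50 after a start, which were used for 54 of the 72 genes. At least 1 match lay in the windows of 4 of 9 cytosolic synthetase genes (44.4%), 0 of 8 mitochondrial synthetase genes and 1 of 37 other members (2.70%), against 1218 of all 27024 genes with windows (4.51%). A match is a description of the letters and not a site. The matched stretches are shown because the synthetases with them and without them are set against each other below. Each is written 5′ to 3′ on the strand of its gene, with the match in capitals, and most match on the other strand.
Yars, chr4:129189895-129189924, + strand: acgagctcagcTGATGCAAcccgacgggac
Gars, chr6:55037960-55037989, + strand: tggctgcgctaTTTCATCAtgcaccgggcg
Iars, chr13:49682126-49682155, + strand: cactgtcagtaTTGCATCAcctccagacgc
Tars, chr15:11399655-11399684, - strand: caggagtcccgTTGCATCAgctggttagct
Eif2s3x, chrX:94212729-94212758, - strand: ttcgccatcatTTTCATCAggtctatgccg

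By the turned effect, most translation genes were slightly positive in array set 1 and evenly divided in array set 2, and no probe passed the test in either. In array set 1, the mean was positive for 38 of 47 member genes (80.9%), against 51.0% of all genes, with a median of 0.047 over members and 0.001 over all genes. The median over members was 0.079, 0.039 and 0.032 in pairs 1, 2 and 3. On array set 2, 22 of 43 member genes were positive (51.2%), against 46.0% of all genes, with medians of 0.0025 over members and -0.003 over all genes, and of -0.033, -0.0082 and 0.019 in the 3 pairs. Leaving out pair 3 brought the positive genes of array set 2 to 10 of 43. These directions are relative to the median probe: on values as deposited, where all probes had a median of -0.128 in array set 1 and -0.0543 in array set 2, 2 of 47 and 3 of 43 member genes were positive. Sizes were small everywhere: the median size over member probes was 0.047 in array set 1 and 0.026 in array set 2, below the median SD over pairs of the same probes, 0.064 and 0.056.

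limma, fitted over all probes of a set with Benjamini-Hochberg adjustment, called 0 of 75 member probes in array set 1 and 0 of 73 in array set 2 at an adjusted p of 0.05, where it called 0% of all probes in each. The lowest adjusted p of a member was 0.997 in array set 1 and 0.883 in array set 2. At an unadjusted limma p of 0.05, 6 member probes passed in array set 1 (8%, against 2.34% of all probes), 5 of them positive (1.84% of all probes passed as positive and 0.508% as negative). The fit of array set 2 passed 5 (6.85%, against 5.22% of all probes), 1 of them positive (1.18% of all passed as positive and 4.04% as negative).

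All 3 slide pairs had the same positive sign for 18 of 47 member genes in array set 1 (38.3%, against 13.4% of all genes) and the same negative sign for 0 (against 10.2%). For array set 2, 4 of 43 genes were positive in all 3 pairs (9.30%, against 9.72%) and 6 were negative in all 3 (14.0%, against 16.2%). Single probes repeated little between slide pairs. Across the 75 member probes, turned effects of one pair correlated with those of another at r of -0.081, 0.15 and 0.22, and across the 73 of array set 2 at 0.18, 0.020 and 0.14. These are descriptions over probes of the same slides.

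**Figure D1:**
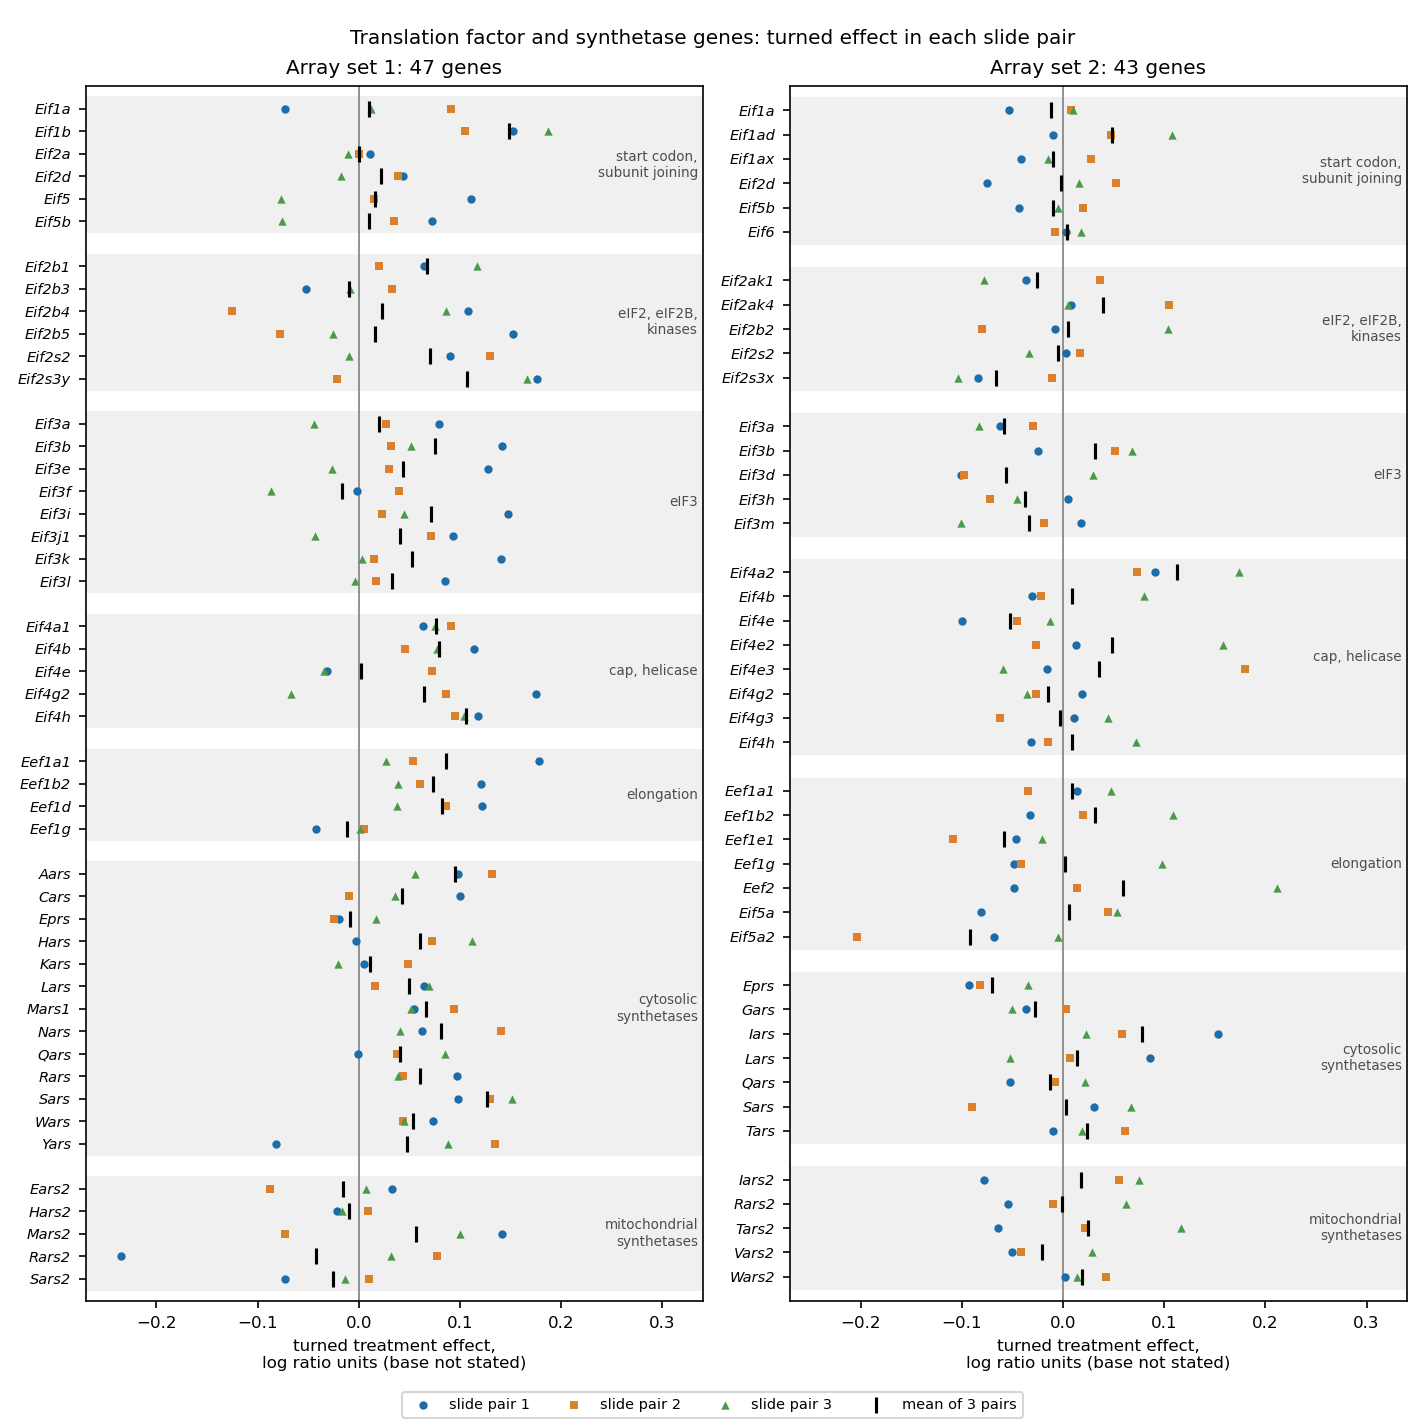
Turned treatment effect of each member gene (x axis, log ratio units of unstated base) in slide pairs 1, 2 and 3 (points) with their mean (bar), in rows by role, array set 1 left and array set 2 right. In array set 1 most points of cytosolic synthetases and of cap and helicase factors lie right of 0, while those of mitochondrial synthetases and of most roles in array set 2 lie on both sides.

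Among the cytosolic synthetases, which load tRNAs for the main ribosomes, 12 of 13 genes in array set 1 had positive means (median 0.053), 7 of them in every pair. Their medians in pairs 1, 2 and 3 were 0.062, 0.048 and 0.051, the most even of the 7 roles over pairs in that set (SD 0.0073). Array set 2 had 4 of 7 positive, with a median of 0.0030 (3 of 7 and -0.012 after quantile normalization, 3 of 7 and -0.011 without pair 1, 3 of 7 and -0.017 without pair 3).

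Sars, the seryl-tRNA synthetase, had the largest mean of this role. On its probe 5554 the centred ratios were -0.0031, 0.26 and -0.58 in pairs 1, 2 and 3 with treated RNA in channel 1, and -0.36, 0.054 and -1.04 with treated RNA in channel 2. The slide with treated RNA in channel 1 had the higher ratio in every pair, while the 2 orientations overlapped across pairs. The turned effects were 0.18, 0.10 and 0.23, mean 0.17 ± 0.064 (SD, n = 3), with an unadjusted limma p of 0.009, rank 14 of 7680 probes, and an adjusted p of 0.997. Another probe, 4152, gave 0.10, 0.12 and 0.14, and the last, 1363, gave 0.012, 0.16 and 0.081, so all 9 values of the gene in array set 1 were positive. On array set 2 the gene's probe gave 0.031, -0.090 and 0.067, a mean of 0.0030 ± 0.082 (SD, n = 3), with signs that differ between pairs.

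Aars (alanine) had turned effects of 0.098, 0.13 and 0.056 and Nars (asparagine) of 0.062, 0.14 and 0.041, positive in all 3 pairs. The 2 probes of Nars gave means of 0.12 ± 0.056 (SD, n = 3) and 0.047 ± 0.051 (SD, n = 3). Mars1 (methionine) gave 0.054, 0.094 and 0.051 and Rars (arginine), the mean of 3 probes, 0.097, 0.044 and 0.039. Both had the same sign in all 3 pairs, and so did Wars (tryptophan) with 0.073, 0.043 and 0.044 and Lars (leucine) with 0.065, 0.015 and 0.069. The others had mixed signs. Hars (histidine) gave -0.0024, 0.073 and 0.11, Qars (glutamine) -0.00043, 0.038 and 0.085 and Yars (tyrosine) -0.082, 0.13 and 0.088. Cars (cysteine) gave 0.10, -0.0095 and 0.036, Kars (lysine, in the cytosol and in mitochondria) 0.0053, 0.048 and -0.020 and Eprs (glutamate and proline on 1 protein) -0.019, -0.025 and 0.017. Eprs was the only gene of the 13 with a negative mean, -0.0090 ± 0.023 (SD, n = 3).

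Iars (isoleucine) was positive in all 3 pairs of array set 2, with 0.15, 0.058 and 0.023 and an unadjusted limma p of 0.052. Eprs was negative in all 3, with -0.093, -0.082 and -0.034, mean -0.070 ± 0.031 (SD, n = 3), and an unadjusted limma p of 0.048; their adjusted p were 0.949 and 0.945. Tars (threonine) gave -0.0098, 0.061 and 0.019, Gars (glycine, in both compartments) -0.037, 0.0034 and -0.050, Lars 0.086, 0.0069 and -0.052 and Qars -0.052, -0.0082 and 0.022. These 4 had mixed signs.

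Synthetases with the letters TGATGNAA in the promoter window were compared by their values alone. In array set 1 the mean effect was 0.047 for Yars, with a match, and the median was 0.041 over Eprs, Kars, Mars1, Qars and Sars, with none, in a range of -0.0090 to 0.13. For 7 other cytosolic synthetases of array set 1 no window was used, and all 7 were positive (median 0.060, range 0.042 to 0.095). The median was 0.023 in array set 2 over Gars, Iars and Tars, with a match, and -0.013 over Eprs, Qars and Sars, with none. Lars, for which no window was used, had 0.014 there. Yars lies within the range of the genes with none, and the ranges of array set 2 overlap, at -0.028 to 0.078 with a match and -0.070 to 0.0030 with none. Sars, with the largest effect, has no match in its window. The other member with a match, Eif2s3x, had a negative effect in array set 2.

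The mitochondrial synthetases, encoded in the nucleus for translation inside mitochondria, were near 0 in both sets. In array set 1, 1 of 5 was positive, with a median of -0.016 and 0 genes positive in every pair, and in array set 2, 3 of 5, with a median of 0.018; after scaling of the arrays, array set 1 had 3 of 5 and a median of 0.011. Leaving out pair 1 or pair 2 gave 2 of 5 in array set 1, and leaving out pair 3 gave 1 of 5 in array set 2. Mars2 was the positive gene of array set 1, with 0.14, -0.073 and 0.10. Rars2 gave -0.24, 0.077 and 0.032 there, the widest spread of any member gene of that set (SD 0.17), and -0.055, -0.010 and 0.063 in array set 2. Sars2 gave -0.073, 0.010 and -0.013, Ears2 0.033, -0.088 and 0.0069 and Hars2 -0.022, 0.0090 and -0.017. Wars2 was positive in all 3 pairs of array set 2, with 0.0016, 0.043 and 0.014, and the other genes were mixed. Tars2 gave -0.064, 0.022 and 0.12, Iars2 -0.078, 0.056 and 0.075 and Vars2 -0.051, -0.042 and 0.029.

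The factors that recognise the cap and unwind the mRNA were positive for 5 of 5 genes in array set 1, with a median of 0.077, and for 5 of 8 in array set 2, with a median of 0.0090 (3 of 8 after scaling, 2 of 8 without pair 3). Eif4a1 and Eif4a2 encode the helicase, and Eif4b and Eif4h the proteins that stimulate it. Eif4h had the narrowest spread of the role in array set 1, with 0.12, 0.095 and 0.10, mean 0.11 ± 0.011 (SD, n = 3), and an unadjusted limma p of 0.051. The same gene gave -0.031, -0.015 and 0.073 in array set 2. Eif4a1 gave 0.064, 0.091 and 0.075 and Eif4b 0.11, 0.046 and 0.077, all positive, but Eif4b gave -0.030, -0.022 and 0.081 in array set 2.

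Eif4a2 had the lowest unadjusted limma p of any member in array set 2, 0.008, at rank 65 of 7680 probes and with an adjusted p of 0.883. Its centred ratios were -0.22, 0.25 and -0.39 with treated RNA in channel 1 and -0.40, 0.10 and -0.74 with treated RNA in channel 2. The first was the higher in each pair, and the turned effects were 0.091, 0.073 and 0.17, mean 0.11 ± 0.054 (SD, n = 3). It was the largest mean of array set 2 among members, and Eif4a2 had no value in array set 1.

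Eif4e, which binds the cap, was negative in array set 2: its 3 probes averaged -0.10, -0.045 and -0.013, and probe 892 had an unadjusted limma p of 0.042. In array set 1 its probe gave -0.031, 0.073 and -0.035. Eif4e2, a cap-binding relative, gave 0.013, -0.026 and 0.16 and Eif4e3 gave -0.015, 0.18 and -0.059, each with 1 pair far from the others. Eif4g2, a relative of the eIF4G scaffold that lacks the site for eIF4E, gave 0.17, 0.086 and -0.067 in array set 1 and 0.018, -0.026 and -0.036 in array set 2, and Eif4g3 gave 0.011, -0.063 and 0.044.

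Of the factors that choose the start codon and join the subunits, 5 of 6 were positive in array set 1 (median 0.013) and 2 of 6 in array set 2 (median -0.0058). Leaving out pair 1 or pair 2 gave 3 of 6 in array set 1, and array set 2 had 6 of 6 without pair 1 and 1 of 6 without pair 3. In array set 1 the first record alone gave 6 of 6 (median 0.036) and the second alone 2 of 6 (median -0.0068). Eif1b, a close relative of the start codon factor eIF1, stood out from the rest of the role in array set 1. Its centred ratios were -0.050, 0.24 and -0.73 with treated RNA in channel 1 and -0.35, 0.029 and -1.10 with treated RNA in channel 2. The turned effects were 0.15, 0.10 and 0.19, mean 0.15 ± 0.041 (SD, n = 3), with an unadjusted limma p of 0.014 and an adjusted p of 0.997. The 3 pairs were all above 0.1, and the gene had no value in array set 2.

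Eif1a, for the factor eIF1A that helps the small subunit scan, gave -0.073, 0.091 and 0.012 over 3 probes in array set 1. These probes differed, from -0.18 to 0.067 in pair 1 and from -0.046 to 0.13 in pair 3. Eif1a gave -0.053, 0.0078 and 0.0095 in array set 2, and its X-linked form Eif1ax gave -0.042, 0.028 and -0.015. Eif5, which triggers GTP hydrolysis on eIF2, gave 0.11, 0.015 and -0.077. Eif5b, the GTPase of subunit joining, gave 0.072, 0.035 and -0.076 in array set 1 and -0.044, 0.019 and -0.0047 in array set 2. None of these 4 genes kept a sign over 3 pairs. Eif2d, a factor that can place tRNA without eIF2, gave 0.043, 0.039 and -0.018 and -0.075, 0.053 and 0.016 in the 2 sets. Eif2a, also outside the eIF2 complex, was at 0.011, 0.00055 and -0.011. Eif6, which keeps the large subunit from joining early, gave 0.0035, -0.0083 and 0.017, the lowest spread of any member gene in array set 2. These are means of 2 probes that differed, with 0.028, 0.0020 and -0.033 on probe 905 and -0.021, -0.019 and 0.068 on probe 3682. Eif1ad, named for its eIF1A domain, gave -0.0094, 0.047 and 0.11.

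eIF2 itself, its exchange factor eIF2B and its kinases were positive for 5 of 6 genes in array set 1 (median 0.045, and 0.077 without pair 2) and 2 of 5 in array set 2 (median -0.0044). After scaling, array set 1 had 4 of 6 and a median of 0.029, and by the second record alone 3 of 6 and 0.016. The gamma subunit, which binds GTP and tRNA, has an X-linked gene, Eif2s3x, and a Y-linked one, Eif2s3y, and each array set measured a different one. Eif2s3y gave 0.18, -0.021 and 0.17 in array set 1. Eif2s3x gave -0.084, -0.011 and -0.10 over 2 probes in array set 2, and its probe 363 was negative in all 3 pairs, mean -0.094 ± 0.043 (SD, n = 3), with an unadjusted limma p of 0.016. The sexes of the embryos were not given in the sources used here. Eif2s2, the beta subunit, gave 0.090, 0.13 and -0.010 in array set 1 and 0.0032, 0.017 and -0.033 in array set 2.

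Of eIF2B, which recharges eIF2 with GTP, Eif2b1 was positive in all 3 pairs, with 0.064, 0.020 and 0.12. The others were mixed: Eif2b3 gave -0.052, 0.033 and -0.0089, Eif2b4 0.11, -0.13 and 0.086, Eif2b5 0.15, -0.078 and -0.026 and, in array set 2, Eif2b2 -0.0076, -0.080 and 0.10. Eif2ak4 encodes GCN2, the eIF2 kinase that senses uncharged tRNA, and gave 0.0084, 0.11 and 0.0049. Eif2ak1 encodes the kinase that responds to heme and gave -0.037, 0.037 and -0.078. The genes Eif1, Eif2s1, Eif2ak2, Eif2ak3, Eif4g1, Eif4ebp1, Eif4ebp2 and Eef1a2 were not analysed here.

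For eIF3, 7 of 8 genes were positive in array set 1 (median 0.042, and 0.0075 without pair 1 or 0.078 without pair 3) and 1 of 5 in array set 2 (median -0.038). The highest in array set 1 was Eif3b, with 0.14, 0.032 and 0.052, and the lowest Eif3f, with -0.0018, 0.040 and -0.087. Eif3i gave 0.15, 0.023 and 0.044 over 2 probes in array set 1. Its probe 7397 had an unadjusted limma p of 0.095 and an adjusted p of 0.997. Pair 1 was the highest pair for 7 of the 8 genes there: the medians over eIF3 genes were 0.11, 0.028 and -0.016 in pairs 1, 2 and 3. The highest of array set 2 was again Eif3b, with -0.024, 0.052 and 0.068, and the lowest Eif3a, with -0.063, -0.030 and -0.082 over 2 probes. Eif3a gave 0.079, 0.027 and -0.044 over 6 probes in array set 1, so the sign differed between the sets. Eif3m gave 0.018, -0.019 and -0.10 over 2 probes that differed: probe 378 gave -0.018, -0.070 and -0.15, with an unadjusted limma p of 0.048, and probe 4602 gave 0.054, 0.032 and -0.051, with one of 0.726.

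The elongation factors had 3 of 4 positive genes in array set 1 (median 0.078, and 0.045 without pair 1) and 5 of 7 in array set 2 (median 0.0058, and 0 of 7 without pair 3). Eef1a1, an abundant factor in most cells, carries loaded tRNA to the ribosome. Its 6 probes in array set 1 ranged from 0.14 to 0.24 in pair 1, from 0.018 to 0.12 in pair 2 and from -0.037 to 0.11 in pair 3. Its 11 probes in array set 2 ranged from -0.014 to 0.043, from -0.075 to 0.020 and from -0.020 to 0.14. Pair 1 was above pairs 2 and 3 on every probe of array set 1, and no pair was so in array set 2. The gene means were 0.086 ± 0.080 (SD, n = 3) in array set 1 and 0.0091 ± 0.041 (SD, n = 3) in array set 2.

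Probes of the same gene agreed more closely within a pair than the pairs did with each other in 8 of 12 cases where a gene had at least 3 probes in a set. For Eef1a1 in array set 1, the SD over probes averaged 0.042 and the SD of the gene mean over pairs was 0.080. For Eef2, which moves the ribosome by a codon, the 4 probes of array set 2 had an SD of 0.038 over probes and 0.14 over pairs. Its gene values were -0.048, 0.014 and 0.21, with pair 3 high on all 4 probes. Eif5 in array set 1 had 0.021 over probes and 0.094 over pairs, and Eif4e in array set 2 had 0.024 and 0.044. Sars in array set 1 was unlike them, with 0.063 over probes and 0.027 over pairs.

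**Figure D2:**
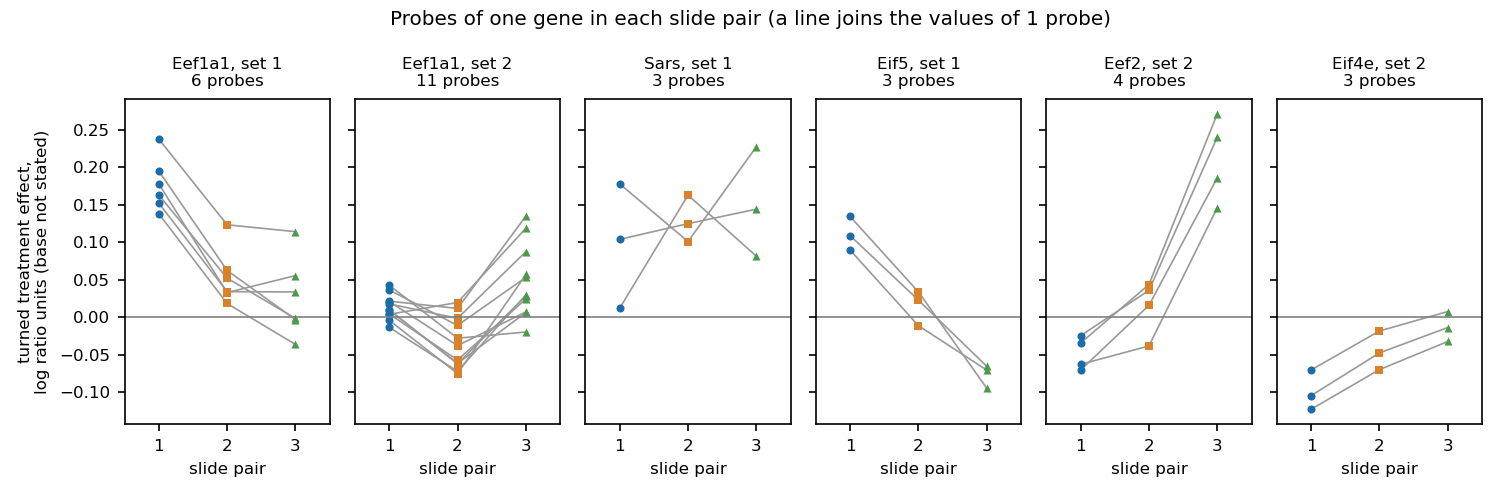
Turned treatment effect (y axis, log ratio units of unstated base) of every probe of 5 genes in slide pairs 1, 2 and 3 (x axis), 1 panel per gene and array set; a line joins the values of 1 probe. Probes of Eif5, Eef2 and Eif4e move together between pairs, those of Eef1a1 mostly do, and those of Sars do not but are all above 0.

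The exchange factor of eEF1A has 3 subunits among these genes. Eef1b2 gave 0.12, 0.061 and 0.039 in array set 1 and -0.033, 0.020 and 0.11 in array set 2, and Eef1d gave 0.12, 0.086 and 0.038. The 2 probes of Eef1g in array set 1 disagreed: probe 2240 was negative in every pair, with -0.16, -0.052 and -0.12, and probe 3891 was positive in every pair, with 0.072, 0.062 and 0.13. The 5 Eef1g probes of array set 2 averaged -0.048, -0.042 and 0.097. Eif5a, which helps the ribosome form difficult peptide bonds, gave -0.081, 0.044 and 0.054, and its relative Eif5a2 -0.068, -0.20 and -0.0047, all negative, with an unadjusted limma p of 0.050. Eef1e1, which is named as an elongation factor but belongs to the complex of several synthetases, gave -0.046, -0.11 and -0.021, also all negative.

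For the 18 genes with probes in both array sets, effects were compared directly. Array set 1 had the higher mean for 16 of 18 genes (88.9%), as it had for 585 of the 943 genes measured in both (62.0%). 7 genes were positive in both sets (38.9%, against 28.0% of all 943): Eef1a1, Eef1b2, Eif3b, Eif4b, Eif4h, Lars and Sars. Eprs and Rars2 were negative in both, and 9 had opposite signs. The means of the 18 genes correlated between sets at r of 0.51 and rho of 0.59, a description over genes.

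A limma fit of the 943 genes over both sets called 0 of the 18 members (0% of all genes), with a lowest adjusted p of 0.758. Without adjustment 2 passed (6.36% of all genes did): Sars, at a joint mean of 0.065 with 5 of 6 pairs positive, and Eif4h, at 0.057 with 4 of 6 positive. This fit took the 6 pairs as separate, although the labels do not say whether equal pair numbers mark the same RNA in both sets. The difference between array set 1 and array set 2 was called for 0 of the 18 (0% of all genes), with a lowest adjusted p of 0.952. Without adjustment 1 passed, Sars, with a difference of 0.12 (1.80% of all genes passed).

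**Figure D3:**
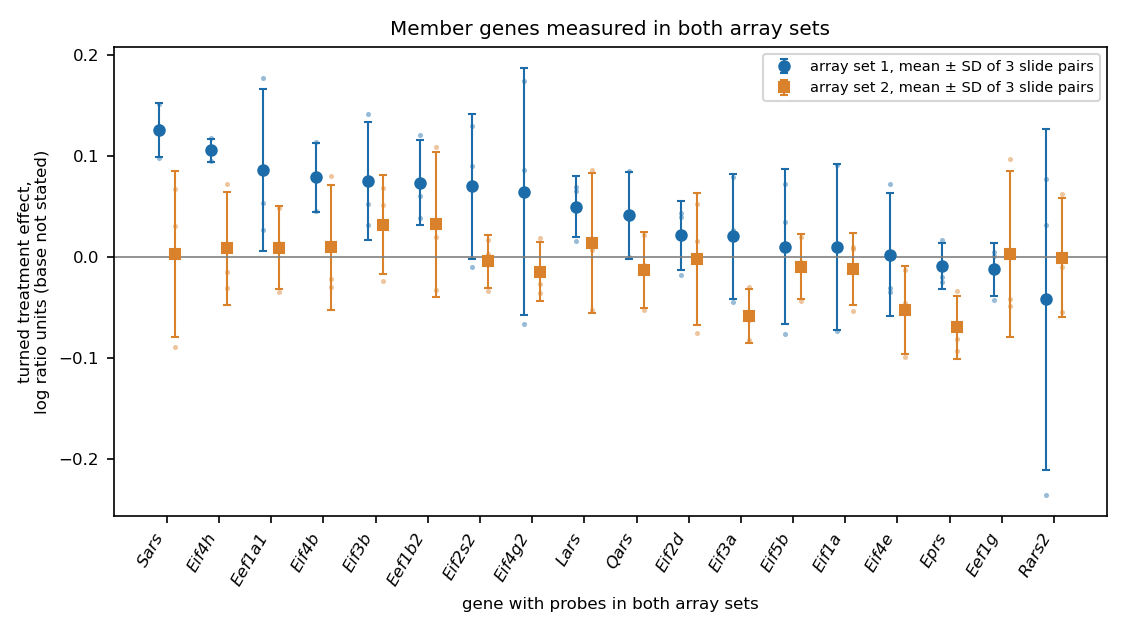
Mean turned treatment effect ± SD of 3 slide pairs (y axis, log ratio units of unstated base) of the 18 genes with probes in both array sets, ordered by array set 1 (circles), with array set 2 as squares and single pairs as small dots. The circle lies above the square for 16 of 18 genes, and most error bars of the 2 sets overlap.

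Read without the turn, the same genes had larger values, mostly negative, and some passed the test in array set 1. Over the 47 member genes of array set 1 the median of the unturned component was -0.33, against -0.039 over all genes, and 38 were negative, as were 2139 of all 3838 genes. Over the 43 of array set 2 it was -0.29, against -0.049 over all genes, and 33 were negative, as were 2424 of all 4075 genes. The component was larger in size than the turned effect for 46 of 47 and 41 of 43 genes. The share over all genes was not counted, but the unturned values were the larger over all probes too. Their median size was 0.172 against 0.035 turned in array set 1, and 0.148 against 0.023 in array set 2. The unturned component varied widely between slide pairs: the member medians were -0.24, 0.023 and -0.76 in pairs 1, 2 and 3 of array set 1, and -0.31, 0.078 and -0.71 in array set 2. All 3 pairs were negative for 18 of 47 genes in array set 1 (38.3%, against 19.9% of all genes) and 11 of 43 in array set 2 (25.6%, against 19.9%).

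By this reading limma called 9 of 75 member probes in array set 1, all negative (12%, against 2.85% of all probes as negative and 0% as positive), and 0 of 73 in array set 2 (0% of all probes, lowest adjusted p of a member 0.198). Other centring or scaling changed both counts. On values as deposited there were 0 calls among members of array set 1 (0% of all probes) and 45 of 73 in array set 2, all positive (61.6%, against 89.6% of all probes). After scaling of the arrays, members had 26 calls in array set 1 (34.7%, against 14.3% of all probes) and 13 in array set 2 (17.8%, against 3.52%). At an unadjusted limma p of 0.05, 33 member probes passed in array set 1 (44%, against 18.5%) and 28 in array set 2 (38.4%, against 16.3%). The 9 called probes belong to 4 genes. All 6 probes of Eef1a1 were called, with unturned means from -1.12 to -0.89 and adjusted p from 0.005 to 0.026. The others were Eif3e probe 5318, with -0.87 ± 0.73 (SD, n = 3) and an adjusted p of 0.038, Eif4g2 probe 1750, with -0.83 ± 0.56 (SD, n = 3) and 0.037, and Eif2s2 probe 3768, with -0.81 ± 0.60 (SD, n = 3) and 0.045. Another Eif2s2 probe, 3130, was positive in all 3 pairs, with an unturned mean of 0.18 and an adjusted limma p of 0.827. The last Eif2s2 probe, 899, had an unturned mean of -0.76 and an adjusted limma p of 0.066. None of the 9 remained without slide pair 1 (0.638% of all probes were called), and 29 member probes were called without slide pair 2, all negative (38.7%, against 9.97% of all probes as negative). Array set 2 had 52 member calls without slide pair 2 (71.2%, against 24.4% of all probes) and 6 without slide pair 3 (8.22%, against 2.53%).

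The Eef1a1 slides show how the 2 readings part. On probe 7175 of array set 1 the centred ratios in pairs 1, 2 and 3 were -0.62, -0.19 and -1.39 with treated RNA in channel 1 and -1.09, -0.44 and -1.62 with treated RNA in channel 2. All 6 slides were negative whichever channel held treated RNA, and in each pair the gap between orientations was smaller than the level they shared. The gene's unturned component was -0.85, -0.46 and -1.70 in array set 1 and -1.09, -0.18 and -1.56 in array set 2, strongest in pair 3 and weakest in pair 2 of each set. If slides were not turned before deposit this level is a dye component, and if they were it is the treatment effect, which cannot be told apart here.

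The unturned component also had different values by role. Cytosolic synthetases were negative for 11 of 13 genes in array set 1 (median -0.14) and 6 of 7 in array set 2 (median -0.28), while mitochondrial synthetases were positive for 5 of 5 in each set (medians 0.13 and 0.12). The means of eIF3 were negative for 8 of 8 and 5 of 5 genes (medians -0.53 and -0.57), with all 3 pairs negative for 6 of 8 and 3 of 5. Elongation factors were negative for 4 of 4 and 7 of 7 (medians -0.43 and -0.54). Cytosolic ribosomal proteins, which are no members, were lower still, with medians of -0.80 over 35 genes and -0.87 over 60. No test was made of these differences between roles.

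**Figure D4:**
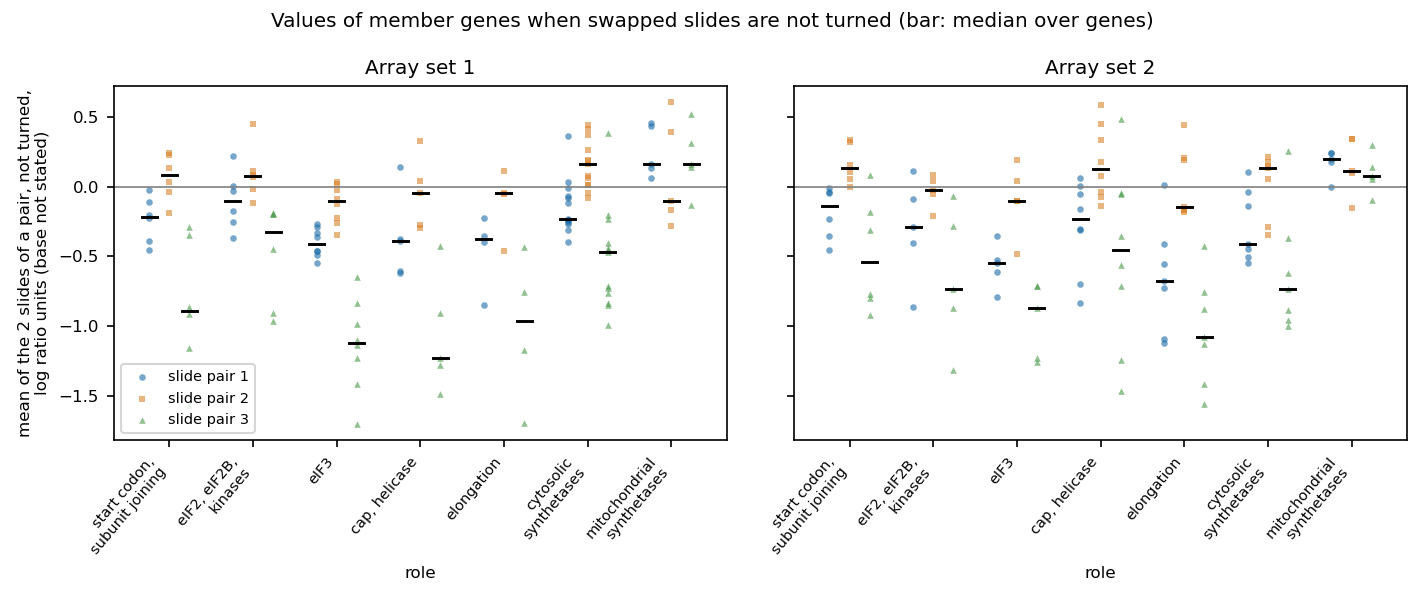
Unturned component of each member gene (y axis, log ratio units of unstated base) by role (x axis) in slide pairs 1, 2 and 3 (points), with the median over genes as a bar, array set 1 left and array set 2 right. Pair 3 lies lowest for most roles in both sets, pair 2 lies nearest 0, and mitochondrial synthetases lie mostly above 0.

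Turned effect and unturned component were related within 1 slide pair. Across member probes their r was -0.59, 0.16 and 0.19 in pairs 1, 2 and 3 of array set 1, and 0.017, 0.25 and 0.16 in array set 2. In pair 1 of array set 1, where the median turned effect of members was highest, the probes with the lowest unturned values had the highest turned effects. The part of this relation in the positive share of array set 1 was not tested. Between pairs, the unturned component correlated across member probes at 0.77, 0.89 and 0.72 in array set 1 and at 0.42, 0.91 and 0.42 in array set 2, far more than the turned effects did.

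Other genes of the pathway were also without a call by limma on the turned effect. Cytosolic ribosomal proteins were positive for 34 of 35 genes in array set 1 (median 0.086, and 0.18, 0.051 and 0.021 in the 3 pairs) and for 25 of 60 in array set 2 (median -0.0063). Mitochondrial ribosomal proteins were positive for 22 of 29 (median 0.027) and 12 of 21 (median 0.0094). The cytosolic ribosomal proteins were highest in pair 1 of array set 1. So were the medians over all members (0.079, 0.039 and 0.032 in the 3 pairs) and over all genes (0.024, 0.0084 and -0.010). Termination and recycling genes were positive for 2 of 5 and 1 of 3, and mitochondrial translation factors for 3 of 5 and 1 of 3. Genes of the mTOR pathway and regulators of translation factors were positive for 7 of 11 (median 0.012) and 6 of 11 (median 0.0010). Of the synthetases and scaffolds outside the rule, Farsb gave 0.078, 0.015 and -0.013 in array set 1, and Farsa, Aimp1 and Aimp2 had means of -0.028 to 0.019 in array set 2.

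Genes of the ATF4 pathway outside the members were positive for 7 of 9 in array set 1 (median 0.046) and 7 of 8 in array set 2 (median 0.040), against 51.0% and 46.0% of all genes. Their medians were -0.0053, 0.085 and 0.079 in pairs 1, 2 and 3 of array set 1, and -0.023, 0.049 and 0.091 in array set 2, so pair 1 was lowest in each. For the members, pair 1 was highest in array set 1 but likewise lowest in array set 2, with medians of -0.033, -0.0082 and 0.019. Atf4 itself gave -0.0093, 0.033 and 0.086, and Asns, which makes asparagine, gave -0.039, 0.15 and 0.20, both in array set 2. Of serine synthesis, Psat1 gave -0.026, 0.093 and 0.22 and Psph -0.097, -0.033 and 0.059 in array set 2, and Phgdh gave -0.0053, 0.16 and 0.13 in array set 1. Psph was the gene of array set 2 with a negative mean, -0.024 ± 0.079 (SD, n = 3), and Atf3 and Vldlr were those of array set 1, with -0.011 ± 0.094 (SD, n = 3) and -0.056 ± 0.12 (SD, n = 3). Trib3, a pseudokinase gene induced by ATF4, had the largest mean, 0.20 ± 0.34 (SD, n = 3), which rests on pair 3 at 0.58. Gpt2, an alanine transaminase gene, was the most even of array set 1, with 0.087, 0.080 and 0.079, and gave -0.015, 0.091 and 0.13 in array set 2.

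Few marker genes of other cell types were measured, and all values are ratios. In array set 1, where members were mostly positive, yolk sac markers were positive for 1 of 5 (median -0.026). The markers of trophoblast and decidua there were Prl8a2, Plac1, Krt8 and Krt18, and 3 of 4 were positive (median 0.085). Nes, the 1 neural tube marker of array set 1, was positive in all 3 pairs (mean 0.054). Krt18 was the 1 marker of trophoblast and decidua in array set 2, also positive in all 3 pairs (mean 0.029). Red cell markers in array set 2 were positive for 1 of 5 (median -0.052). Their part in the results was not tested.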

How the data were processed

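The values were deposited as 2 tables of the authors' processed ratios, 1 per array design, with 7680 probes and 12 records each. Their unit was taken as a log ratio of 2 channels from the values, which ran from -2.60 to 7.71 and from -4.33 to 5.96. The log base, numerator channel, dyes, background correction, normalization and spot intensities were not given in the sources used here, and signal over background is therefore unknown. Gene symbols came from the platform annotation and were updated through the gene identifier: 4749 and 4935 had 1 symbol, 227 and 275 several, 2704 and 2470 none.

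Record medians, from -0.305 to 1.12 and from 0.272 to 2.10, were subtracted. All values were present, and none was filtered. Turned effects and unturned components were tested against 0 over 3 slide pairs with limma 3.58.1 (lmFit, eBayes) in R 4.3.3, across all probes of a set, and both sets jointly over genes. The code was tested on simulated data. Probes of a gene were averaged. Named in the text were genes in both sets, all synthetases, the 10 probes with the lowest p and the 6 with the largest mean per set, called probes, and a list of core factors. The promoter window of 1 gene is not reported here. The members and lists were chosen with earlier results of these data known. Alternatives changed centring, scaling, quantile normalization, the turn, orientation, record, variance model, replicate block and slide pairs.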

Additional observations from a re-analysis of the deposited data

How the results depend on the processing

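The turned fits called 0 member probes in each array set under scaling, quantile normalization, either record alone, an ordinary variance, no replicate block, values as deposited, and when any slide pair was left out; of all probes they called 0% to 0.430% in array set 1 and 0% to 0.755% in array set 2. For channel 2 alone the sign of each slide was turned, so a positive value there is a negative centred ratio on the slide. Counts differed by orientation in array set 1. There were 6 with treated RNA in channel 1 alone, all negative (8%, against 2.27% of all probes). With it in channel 2 alone there were 20, all positive after that turn (26.7%, against 8.70%), and 9 came without the turn of swapped slides. For array set 1 the median over member genes was -0.0768 as deposited, where all probes shifted to a median of -0.128 and members stayed 0.0517 above them, -0.329 without the turn, -0.248 by channel 1 alone and 0.369 by channel 2 alone. For array set 2 it was -0.0503 as deposited (all probes -0.0543), -0.288 without the turn, -0.286 by channel 1 alone and 0.324 by channel 2 alone. Leaving out a slide pair gave medians of 0.0336 to 0.0527 and of -0.0166 to 0.0074. As deposited, 2 of 47 and 3 of 43 member genes were positive. Without slide pair 3, 10 of 43 were positive in array set 2. Without the turn, the 9 calls of array set 1 became 0 as deposited (0% of all probes), 26 when scaled (14.3%), 23 by quantiles (11.9%), 14 by the first record (4.14%) and 0 to 29 without a slide pair; the 0 of array set 2 became 45 as deposited (89.6% of all probes), 13 when scaled (3.52%), 20 by quantiles (6.07%) and 0 to 52 without a slide pair, 52 without pair 2 and 6 without pair 3. The causes were not tested.

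Pair numbers of the 2 sets were not treated as pairing: across 943 genes, equal numbers correlated at 0.083, 0.051 and 0.12 and unequal ones at -0.086 to 0.0095, each pair best with its own number, a hint from the data; over the 18 members in both sets equal numbers correlated at 0.29, 0.25 and 0.46. With a replicate block the joint fit and the set comparison still called 0 members.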

Other observations

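The letters CACGTG, the E-box bound by factors such as those of the MYC family, were also looked for in the same promoter windows, on both strands, which read alike. They lay in the windows of 13 of 54 member genes (24.1%), against 8.09% of all 27024 genes: 2 of 9 for cytosolic synthetases, 1 of 8 for mitochondrial ones and 10 of 37 for the other members. None of the matches overlapped one of TGATGNAA. Eif1b and Eif4h, both positive in every pair of array set 1, were among the genes with a match, and so were Eif3f, Eif5a2 and Eif4e, whose means were negative in at least 1 set. A match is a description of these letters and says nothing about binding.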
